A study of Mus musculus with 12 samples.

Results

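The genes described here are the 80 expressed Zfp genes of mouse intestinal epithelium. They are protein-coding genes whose symbol is Zfp followed by digits alone and whose mean raw count over the 4 input libraries was at least 150. They make up 80 of the 365 protein-coding genes with such a symbol, in files that list 48526 gene rows. They were chosen by their mean input count, so their input level is given as a description and is not tested. It ran from 151 for Zfp131 to 3810.5 for Zfp36, with a median of 299.25. Just inside the minimum were Zfp131 (151), Zfp426 (155) and Zfp623 (156.5), and just outside it were Zfp398 (148.75), Zfp46 (148.5) and Zfp809 (147.5). Of the 285 Zfp genes left out, 17 had 0 counts in all 12 libraries. All 80 members passed the filter on low counts in each of the 9 contrasts tested.

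The RNA came from epithelial cells of the proximal small intestine, named whole intestine in the sample titles, of female mice aged 3 months, of which 2 were KAT2A/KAT2B DKO and 2 were controls. In the DKO animals loss of the genes for the lysine acetyltransferases Kat2a and Kat2b was induced by 4 daily intraperitoneal injections of tamoxifen (100 mg/kg) in ethanol and corn oil, and the controls received the same solvent alone. Each animal, sampled 2 days after its last injection, gave an input library of total RNA and pulldown libraries made with J2 and K1, antibodies that bind double-stranded RNA whatever its sequence. The series asked which RNAs the antibodies enrich and whether this differs in DKO. The labels name neither the Cre driver nor the targeted alleles, and genotype and tamoxifen exposure cannot be told apart.

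Zfp genes encode zinc finger proteins, most of them of the C2H2 class, in which a pair of cysteines and a pair of histidines hold a zinc ion and fold a short finger that reads bases of DNA or, in some proteins, contacts RNA or other proteins. Fingers often stand in tandem, joined by a conserved linker, so that the coding sequence repeats a unit of nearly constant length. Many of these proteins carry a KRAB domain, which recruits TRIM28 (KAP1) and the histone methyltransferase SETDB1 and silences retroelements, whose transcripts are a known source of cellular double-stranded RNA. A few members bear the symbol but belong to other classes, among them Zfp36 (tristetraprolin), a CCCH protein that binds AU-rich elements and promotes messenger RNA decay.

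The repeated unit is shown for 8 members on which the comparisons turn, 5 of them with high enrichment in control or a difference between genotypes, and 3 that differ in base composition (2 of low and 1 of high GC content). Each is the first unit of its kind in a single coding exon, read from the GENCODE M21 transcript (GRCm38). It runs for 78 bases, or 26 residues, from the first cysteine of a finger through the linker that follows it. The lower-case letters are the finger and the capitals mark the codons of the 5-residue linker.
Zfp652: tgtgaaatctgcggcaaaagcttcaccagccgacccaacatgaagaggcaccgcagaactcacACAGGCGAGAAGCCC
Zfp664: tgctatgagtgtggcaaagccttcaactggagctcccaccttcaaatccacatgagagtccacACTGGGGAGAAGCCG
Zfp866: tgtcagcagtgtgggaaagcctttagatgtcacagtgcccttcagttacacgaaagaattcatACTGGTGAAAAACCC
Zfp871: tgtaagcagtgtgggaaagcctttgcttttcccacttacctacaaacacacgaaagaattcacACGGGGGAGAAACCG
Zfp266: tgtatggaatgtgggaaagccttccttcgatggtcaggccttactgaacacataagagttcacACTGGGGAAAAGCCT
Zfp946: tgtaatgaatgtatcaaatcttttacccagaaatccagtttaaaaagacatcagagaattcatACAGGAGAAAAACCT
Zfp950: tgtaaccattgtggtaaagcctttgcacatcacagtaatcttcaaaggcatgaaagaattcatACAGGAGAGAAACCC
Zfp513: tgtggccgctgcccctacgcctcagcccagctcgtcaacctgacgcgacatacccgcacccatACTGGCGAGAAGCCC

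The units lie at chr11:95763556-95763633 (plus strand, Zfp652), chr5:124885808-124885885 (plus, Zfp664), chr8:69766234-69766311 (minus, Zfp866), chr17:32775456-32775533 (minus, Zfp871), chr9:20499602-20499679 (minus, Zfp266), chr17:22454996-22455073 (plus, Zfp946), chr19:61120254-61120331 (minus, Zfp950) and chr5:31200419-31200496 (minus, Zfp513). Over the 78 bases the other 7 units were 52.6% to 60.3% identical to that of Zfp652. They encode the same linker with different codons. Of the third codon positions of the Zfp946 unit 19.2% were G or C, against 23.1% in Zfp950 and 76.9% in Zfp513. The GC content of the whole unit was 30.8% in Zfp946, 39.7% in Zfp950 and 66.7% in Zfp513.

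Across the 80 members the translated transcripts held between 0 and 36 C2H2 patterns, with a median of 9. Zfp36 and Zfp703 held none, 15 members held 1 to 4, 29 held 5 to 9 and 34 held 10 or more. The linker occurred at least 3 times in 24 members, and a KRAB domain pattern was found in 12: Zfp26, Zfp110, Zfp169, Zfp266, Zfp426, Zfp445, Zfp568, Zfp747, Zfp777, Zfp866, Zfp871 and Zfp946. The transcripts were longer than those of all 7326 protein-coding genes with the same input minimum and a transcript in the annotation (median 4081.5 against 3183 bases), and their median GC content was 49.7% against 50.5%. The members lay on 18 chromosomes, and chromosome 7 held 19 of them (23.8%, against 7.07% of the protein-coding genes). An inverted repeat of at least 100 bases and 75% identity within the transcript, which could fold back on itself, was found in 1 member, Zfp36, and in 50 of the 7326 genes (0.683%).

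Stretches of at least 100 bases that were at least 97% identical to another gene's transcript occurred in 20 members and covered at least 10% of the transcript in 11. Among members named below these were Zfp106 (26.1%), Zfp384 (30.0%), Zfp335 (22.7%), Zfp703 (14.7%), Zfp866 (13.0%), Zfp276 (12.3%) and Zfp706 (11.2%), and their counts are uncertain to that extent. The search covered both strands and did not leave out genes that overlap the member. Such stretches can therefore be the exon overlaps given next, rather than copies elsewhere in the genome. Since the reads were counted without strand, reads in exons shared by overlapping genes cannot be assigned by strand. The files list ambiguous reads apart from the genes (3.65% to 6.11% of the listed reads), so such reads may be left out of a member's count. The exons of 32 members overlap those of another gene, by at least 10% in 11. Of the exons of Zfp652, 19.3% are overlapped on the opposite strand (Abi3 and Zfp652os) and 11.8% on the same strand (Phospho1). For Zfp704 the opposite-strand share was 16.6% (C030034L19Rik), for Zfp106 26.1% (Gm26899) and for Zfp276 19.4% (Fanca and Vps9d1).

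The libraries held 2220291 to 16139531 gene counts, and the DKO pulldowns were the shallowest. Reads aligned to several places made up 22.7% ± 9.67 of the listed reads in DKO J2 (SD, n = 2) and 36.3% ± 14.7 in DKO K1, and from 5.76% to 7.93% on average in the other 4 groups. Summed over 10 markers, epithelium stood at 8153 to 9991 CPM (counts scaled to library size) in input. Leukocyte markers summed to 79.2 and 91.3 CPM in control input and to 48.4 and 50.1 in DKO input. The 9 stroma and vessel markers summed to 2.62 to 7.15 CPM in input and 3.16 to 37.3 in control pulldowns, but to 39.8 to 155 in DKO pulldowns. The part of these differences in the values below was not tested. Replicates were different animals, and p-values rest on 2 animals a genotype.

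The summed counts of the 80 genes took a larger share of the control pulldowns than of their inputs. They took 0.355% and 0.352% of the gene counts in control input, 0.695% and 0.699% in control J2, and 0.606% and 0.564% in control K1. In DKO they took 0.316% and 0.331% of the input, 0.318% and 0.502% of J2, and 0.287% and 0.379% of K1. The control groups do not overlap between input and pulldown. Of the DKO 1 values, that in J2 lies between the DKO inputs and that in K1 below them.

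Level per exon length in input was highest for Zfp36, with 62.4 and 67.6 CPM per kilobase in the controls and 123 and 88.1 in DKO. It was followed by Zfp706, at 31.2 and 30.8 in the controls and 13.5 and 16.2 in DKO. Zfp598, Zfp703 and Zfp207 came next, with means over the 4 inputs of 17.7 ± 2.63, 15.8 ± 1.60 and 13.7 ± 0.737 (SD, n = 4, both genotypes). Neighbours in this order of 3 differ by less than the sum of their SDs. The median member stood at 3.75 CPM per kilobase.

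In control epithelium most Zfp transcripts stood above input in the J2 pulldown. Against input, 37 of the 80 were higher and 3 lower at an adjusted p under 0.05 (edgeR's quasi-likelihood test, adjusted over all genes), where 15.2% of all 15923 genes tested were higher and 14.6% lower. Their median log2 fold change was 0.86, and 67 of 80 were above 0. The median was 0.16 over the 7330 protein-coding genes with the same input minimum, of which 1530 were higher and 806 lower, and -0.07 over all genes. This reference is not matched for transcript length. The members' transcripts were longer (median 4081.5 against 3183 bases), and the log2 fold change rose with length over the other protein-coding genes (Spearman 0.57). With offsets that remove each library's trend on GC content and length, the members' median was 0.62. How much of the difference goes with length was not tested. Without TMM scaling the medians of the members and of all genes both dropped, to 0.48 and -0.44, and 25 members were higher and 0 lower. No member passed without control animal 1 or control animal 2 (19 and 22 at an unadjusted p under 0.05), and 68 passed without either DKO animal.

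In control K1 against input, 43 members were higher and 3 lower, where 19.7% of all genes tested were higher and 20.1% lower. The median of the members was 0.70, against 0.25 over the protein-coding genes with the same input minimum and 0.00 over all genes. Here, too, the reference is not matched for length (Spearman 0.44 over the other protein-coding genes), and with the offsets the members' median was 0.50. J2 and K1 are compared with the same input libraries, so the 2 antibodies are not independent here. Without control animal 1 or 2 the count was 2 each, and without DKO animal 1 or 2 it was 59 and 58.

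In DKO members were found on both sides of input. J2 against input gave 19 higher and 6 lower members with a median of 0.54, where 12.2% of all genes were higher and 13.4% lower and the protein-coding genes with the same input minimum had a median of 0.09. The members' J2 median was lower in other settings. It was 0.44 with the animal as a block, 0.34 and 0.32 without DKO animal 1 or 2, and 0.51 and 0.39 without control animal 1 or 2. K1 against input gave 20 higher and 10 lower with a median of 0.08, where 14.6% of all genes were higher and 21.0% lower and the reference median was -0.07. Without TMM scaling the K1 median in DKO turned to -0.22, that of all genes from -0.14 to -0.48, and the split to 15 higher and 21 lower. The J2 count was 0 without control animal 1 or 2 (21 and 19 at an unadjusted p under 0.05) and 47 and 50 without DKO animal 1 or 2. The K1 count was 17 and 18, and 32 and 40, in the same order.

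**Figure D1:**
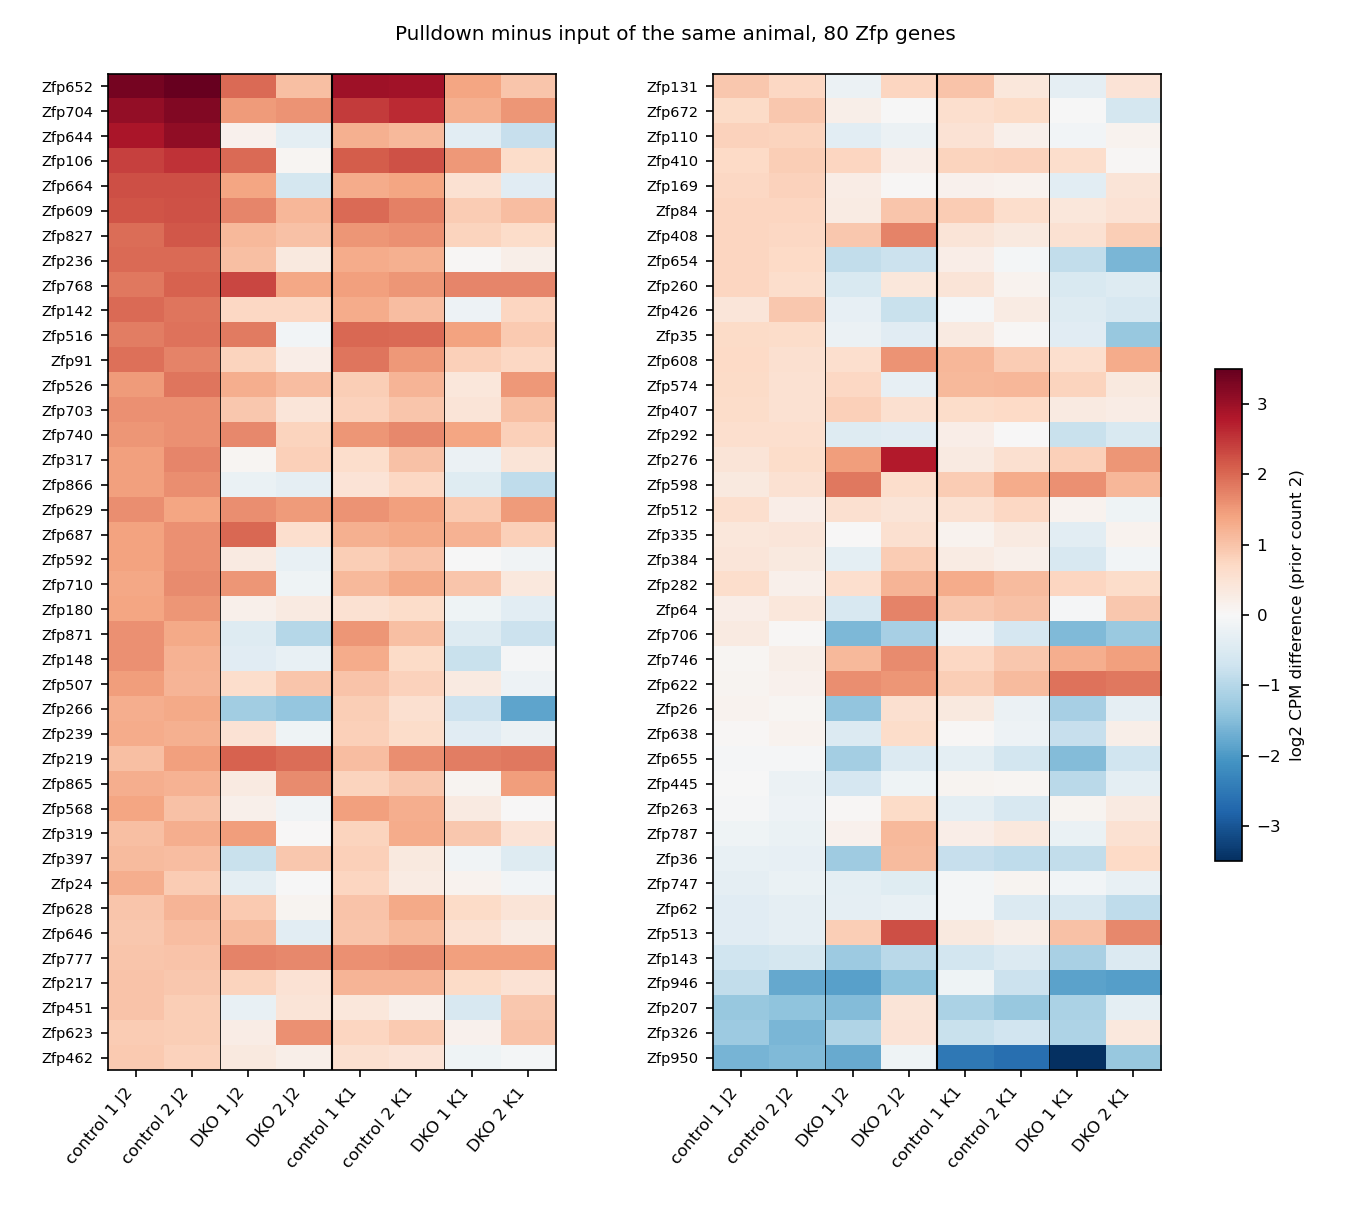
Difference in log2 CPM (prior count 2) between the pulldown and the input of the same animal, with 1 row for each of the 80 Zfp genes in order of edgeR's log2 fold change of J2 against input in control, and 1 column for each animal and antibody. Control columns are mostly positive, with J2 medians of 0.90 and 0.87, while DKO columns have J2 medians of 0.29 and 0.44 and K1 medians of 0.07 and 0.32 and turn negative for members such as Zfp266 and Zfp706.

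The 4 members with roles in messenger RNA decay, translation or ribosome assembly had log2 fold changes from -0.27 to 0.45 in control J2, none of them past the threshold (edgeR, lowest adjusted p 0.45). Zfp36 stood at 217 and 235 CPM in control input, 182 and 192 in control J2 and 124 and 128 in control K1. In DKO it stood at 426 and 306 in input, 180 and 661 in J2 and 233 and 498 in K1. The control libraries are close to each other, while the DKO pulldowns differ by more than 2-fold between the animals. Its differences from input were not called with either antibody or genotype (adjusted p 0.057 in control K1 and higher in the others).

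Zfp622, a cytoplasmic factor in the maturation of the large ribosomal subunit, was the 1 member whose J2 enrichment was called higher in DKO than in control. It stood at 22.7 and 25.1 CPM in control input and 27.4 and 23.9 in DKO input. In J2 it stood at 24.1 and 27.9 in the controls and 84.4 and 70.0 in DKO, and in K1 at 41.1 and 54.0 against 104 and 85.6. All DKO pulldown values lie above all control ones, and the inputs overlap. J2 against input was 0.13 ± 0.22 in control (SE) and 1.62 ± 0.23 in DKO, and K1 against input was 0.91 ± 0.20 and 1.80 ± 0.21 (adjusted p 0.0055 and 0.000343).

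Zfp598, an E3 ligase that marks collided ribosomes, was above input in 3 of the 4 pulldown comparisons. Its levels were 63.0 and 58.4 CPM in control input, 80.1 and 84.9 in control J2 and 118 and 143 in control K1. The DKO values were 81.4 and 72.6 in input, 295 and 110 in J2 and 245 and 163 in K1. Every pulldown library exceeds the inputs of its genotype, and log2 fold changes that passed were 1.02 ± 0.24 in control K1, 1.42 ± 0.42 in DKO J2 and 1.33 ± 0.24 in DKO K1.

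Zfp706, which encodes a protein of 76 residues with a single finger pattern, went the other way in DKO. It stood at 156 and 153 CPM in control input, 194 and 159 in control J2 and 137 and 102 in control K1. The DKO values stood at 67.5 and 80.8 in input and at only 22.7 and 36.1 in J2 and 22.8 and 32.6 in K1. The DKO values lie below every control value, and those of the DKO pulldowns lie below those of DKO input. J2 against input fell by 1.31 ± 0.31 in DKO (adjusted p 0.0204) and K1 fell by 1.52 ± 0.27 (adjusted p 0.00267), with 0.20 ± 0.30 and -0.45 ± 0.25 in control.

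Of the members linked to structured RNA or splicing, Zfp106 was enriched in control with both antibodies. In control Zfp326 was called lower with J2 alone and Zfp207 with K1 alone. Zfp106, an RNA-binding protein needed in motor neurons, stood at 128 and 120 CPM in control input, 668 and 697 in control J2 and 551.2 and 566 in control K1. In DKO it stood at 81.1 and 104 in input, 318 and 109 in J2 and 232 and 163 in K1. The control groups are far apart, whereas DKO 2 in J2 is close to its own input. Its log2 fold changes were 2.47 ± 0.50 in control J2 (adjusted p 0.00978), 2.09 ± 0.27 in control K1 (adjusted p 0.000454) and 1.00 ± 0.26 in DKO K1 (adjusted p 0.0145), and 1.23 ± 0.48 in DKO J2 did not pass.

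Zfp326, a subunit of the DBIRD complex that links transcript elongation with splicing, had 14.8 and 15.4 CPM in control input and 6.04 and 4.94 in control J2. Its log2 fold change of -1.45 ± 0.47 had an adjusted p of 0.0483. Zfp207 (BuGZ), which binds Bub3 at kinetochores, had 98.4 and 87.0 CPM in control input and 45.5 and 34.6 in control K1, a change of -1.29 ± 0.27 (adjusted p 0.00434). With the other antibody neither gene passed in control, at 8.51 and 9.69 CPM in K1 for Zfp326 and 39.2 and 32.7 in J2 for Zfp207. In the DKO J2 libraries Zfp326 had 4.84 and 16.7 CPM and Zfp207 had 31.4 and 123, so that the second DKO animal exceeded its input and the first did not. Zfp638, a nuclear RNA-binding protein, passed in none of the 4 pulldown comparisons (log2 fold changes from -0.32 to 0.22).

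The ubiquitin and SUMO ligases were both above input in control J2. Zfp91, a ubiquitin ligase of the alternative NF-kB pathway, rose from 118 and 117 CPM in input to 452 and 388 in J2 and 431 and 334 in K1 in control. The DKO values stood at 96.6 and 90.4 in input, 166 and 107 in J2 and 172 and 149 in K1. All pulldown values exceed those of the matching inputs, by less in DKO (0.57 ± 0.32 for J2, not called, and 0.70 ± 0.24 for K1, adjusted p 0.0406). Zfp451, a SUMO ligase, had a log2 fold change of 0.94 ± 0.31 in control J2 (adjusted p 0.0498) and did not pass in the other pulldown comparisons.

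Of the KRAB proteins with known roles in imprinting, Zfp568, which silences a promoter of Igf2 in the embryo, was enriched in control with 22.8 and 22.3 CPM in J2 and 23.8 and 26.5 in K1 against 8.67 and 10.8 in input. In DKO its input level was higher, at 17.2 and 15.6 CPM, and its J2 and K1 levels of 14.2 to 21.4 CPM straddled that level. Zfp445, a factor that maintains imprints, stayed close to input in control (-0.09 ± 0.22 for J2 and -0.01 ± 0.20 for K1). In DKO K1 it had 19.0 and 27.6 CPM against 37.0 and 35.0 in input, a change of -0.73 ± 0.22 (adjusted p 0.0273).

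Among the transcription factors and chromatin proteins, 7 of 14 were higher in control J2 (15.2% of all genes), and 8 were higher and 1 lower in control K1 (19.7% and 20.1% of all genes). Zfp609 stood at 53.5 and 56.7 CPM in control input, 248 and 265 in J2 and 211 and 192 in K1, and it was the only one of the 14 that passed upward in all 4 pulldown comparisons (2.23 ± 0.30 and 1.79 ± 0.21 in control, 1.49 ± 0.29 and 0.91 ± 0.21 in DKO). Zfp592, Zfp217, Zfp148, Zfp644 and Zfp703 passed upward with both antibodies in control, at log2 fold changes from 0.82 (Zfp703, K1) to 3.00 (Zfp644, J2). Zfp24 passed upward in control J2 alone (1.09 ± 0.26), and Zfp410, an activator of Chd4, and Zfp687 in control K1 (0.71 ± 0.24 and 1.20 ± 0.27). Zfp687 also passed in DKO K1 (1.00 ± 0.27). Zfp143, which binds promoters, was below input in control K1 (-0.64 ± 0.22) and in DKO with J2 (-1.10 ± 0.24) and K1 (-0.90 ± 0.24). Zfp131, Zfp335 and Zfp384 passed in none of the 4, and Zfp292 passed only downward, in DKO K1 (-0.74 ± 0.21, adjusted p 0.021).

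Outside these role groups, the 2 genes with the highest log2 fold changes against input in control were Zfp652 and Zfp704. Zfp652 (ENSMUSG00000075595.9, chr11:95712673-95835115), a transcriptional repressor, stood at 83.4 and 79.1 CPM in control input, 853 and 904 in control J2 and 654 and 613 in control K1. In DKO it stood at 39.0 and 38.9 in input, 155 and 81.1 in J2 and 101 and 77.0 in K1. It was above input in every animal, and DKO values lay below control values in each kind of library. The log2 fold changes against input were 3.44 ± 0.40 and 2.88 ± 0.25 in the controls and 1.63 ± 0.38 and 1.12 ± 0.24 in DKO.

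Zfp704 (ENSMUSG00000040209.12, chr3:9427020-9610085) had 30.8 and 24.8 CPM in control input, 262 and 235 in control J2 and 170 and 152 in control K1. In DKO it had 11.4 and 14.5 CPM in input, 32.4 and 43.2 in J2 and 27.6 and 42.6 in K1. As for Zfp652, no pulldown value overlaps the input of its genotype. Its log2 fold changes were 3.16 ± 0.29 (adjusted p 0.00188) and 2.45 ± 0.26 (adjusted p 0.000204) in the controls and 1.57 ± 0.28 and 1.33 ± 0.27 in DKO. Zfp664 had 2.28 ± 0.42 in control J2 (adjusted p 0.00709), and Zfp516, a factor that activates Ucp1 in brown fat, had 1.92 ± 0.26 in control K1 (adjusted p 0.000551).

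Zfp950 and Zfp946, finger genes of low GC content (37.1% and 36.9%), were below input. Zfp950 stood at 31.0 and 28.3 CPM in control input, 9.95 and 9.55 in control J2 and 5.30 and 4.40 in control K1. The DKO values stood at 27.4 and 32.1 in input, 7.90 and 29.0 in J2 and 1.90 and 12.7 in K1. The control groups are clearly apart, while the J2 value of DKO 2 lies within the DKO input range. The K1 libraries of DKO hold only 8 and 28 of its reads. The changes were -1.60 ± 0.47 in control J2 (adjusted p 0.0356), -2.68 ± 0.47 in control K1 (adjusted p 0.00177) and -2.32 ± 0.54 in DKO K1 (adjusted p 0.00922).

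Zfp946, whose finger unit shown above has the lowest GC content of the 8, had 15.1 CPM in each control input and 8.23 and 4.21 in control J2. In DKO it had 10.9 and 12.6 in input, 2.80 and 4.63 in J2 and 2.85 and 3.17 in K1. The pulldown values lie below those of the matching inputs. Its changes were -1.27 ± 0.37 in control J2, -1.65 ± 0.43 in DKO J2 and -2.06 ± 0.36 in DKO K1, and in control K1 -0.49 ± 0.26 did not pass.

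**Figure D2:**
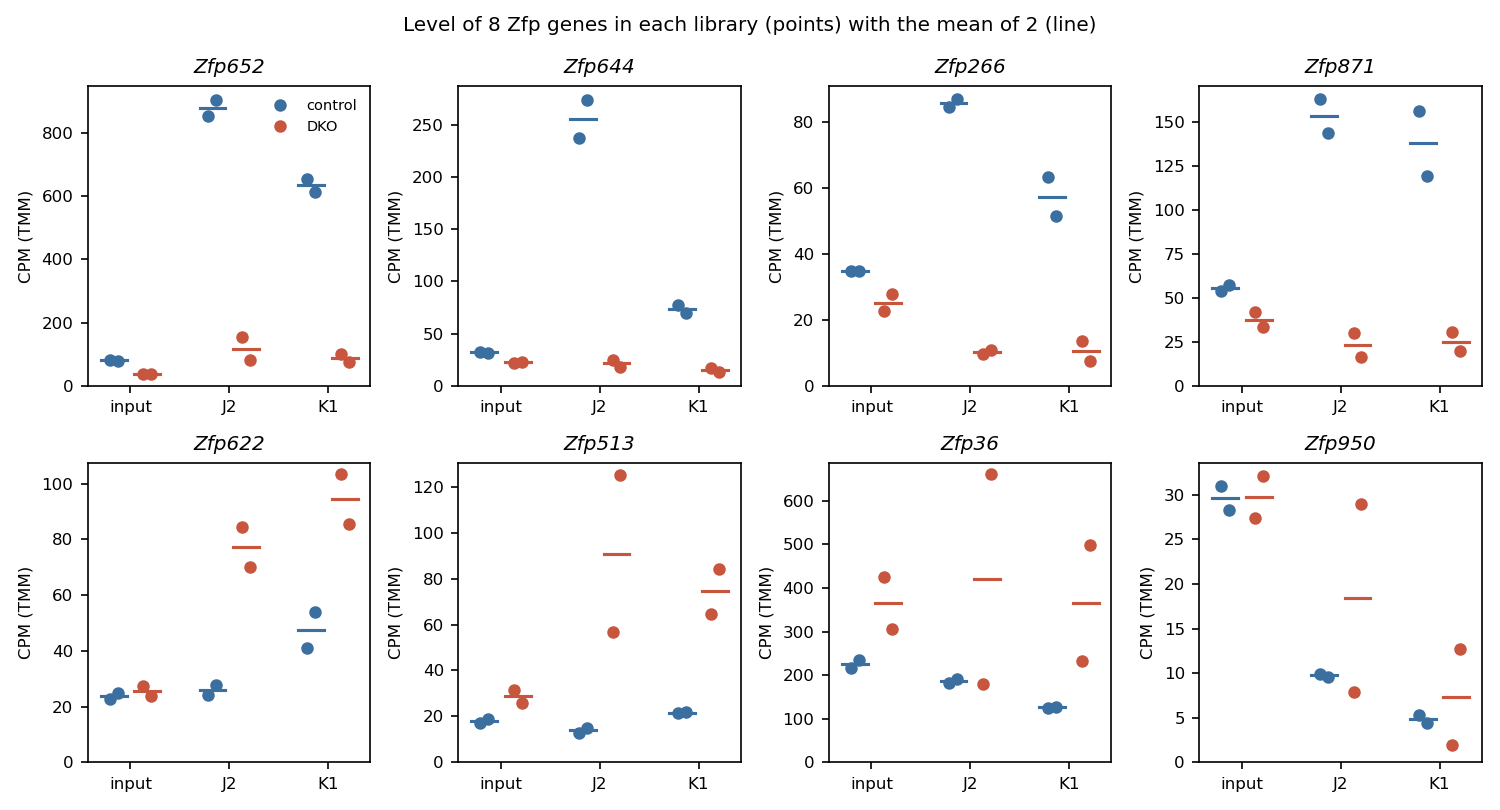
CPM (TMM scaling) of 8 Zfp genes in each of the 12 libraries, with control in blue and DKO in red and a line at the mean of the 2 animals. Zfp652, Zfp644, Zfp266 and Zfp871 are highest in control pulldowns (Zfp652 853 and 904 CPM in control J2 against 155 and 81.1 in DKO J2), Zfp622 and Zfp513 are highest in DKO pulldowns, and Zfp36 and Zfp950 differ between the 2 DKO animals.

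In DKO the log2 fold change against input was higher in members of higher GC content. Over the 80 members the Spearman correlation of the log2 fold change with transcript GC content was 0.12 for J2 and 0.40 for K1 in control, but 0.71 for J2 and 0.72 for K1 in DKO. Over the 7246 other protein-coding genes with the same input minimum it was -0.06, 0.18, 0.36 and 0.42 in that order. Transcript length showed the reverse order, at 0.47 and 0.38 in the controls and 0.03 and 0.03 in DKO, against 0.57, 0.44, 0.28 and 0.20 over the other genes. These are correlations across genes that share the same libraries, and genes are not independent replicates.

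Of the 27 members with a GC content under 46.3%, 1 was higher and 6 were lower in DKO J2 (median -0.27), and 1 was higher and 10 lower in DKO K1 (median -0.65). Of the 27 above 53.3%, 12 were higher and 0 lower in DKO J2 (median 1.12), and 11 higher and 0 lower in DKO K1 (median 0.70). Over all genes tested, of any GC content, 12.2% were higher and 13.4% lower in DKO J2, and 14.6% and 21.0% in DKO K1. The 26 members between these 2 groups had medians of 0.56 and 0.12. In control the same 3 groups had J2 medians of 0.71, 0.94 and 1.01 from low to high GC content. The protein-coding genes in these GC ranges had medians of -0.35, 0.10 and 0.48 in DKO J2 and -0.54, -0.09 and 0.35 in DKO K1, so the members stood above them in the middle and upper ranges. With offsets that remove each library's trend on GC content and length, the members' medians were 0.62 and 0.50 in the controls and 0.41 and 0.17 in DKO for J2 and K1. The count in control J2 was then 24 higher and 1 lower, in DKO J2 12 higher and 0 lower, and in DKO K1 15 higher and 2 lower. Shares over all genes were counted for the main fit alone, so the counts with offsets have no background beside them.

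Among the GC-rich members Zfp219, Zfp768, Zfp777 and Zfp276 had the highest log2 fold changes in DKO J2. Zfp219 stood at 29.0 and 28.5 CPM in control input, 60.0 and 78.3 in J2 and 61.2 and 88.5 in K1. In DKO it stood at 38.0 and 31.0 in input, 159 and 122 in J2 and 131 and 113 in K1. No pulldown value overlaps its input, with log2 fold changes of 1.27 ± 0.27 and 1.30 ± 0.22 in the controls and 2.05 ± 0.27 and 1.74 ± 0.23 in DKO. Zfp276 reached 43.3 and 89.1 CPM in DKO J2 from 15.7 and 12.9 in DKO input, a change of 2.24 ± 0.35 (adjusted p 0.00559), and had 0.57 ± 0.34 in control J2. Zfp768 changed by 2.01 ± 0.40 in DKO J2 and Zfp777 by 1.75 ± 0.21, with 1.97 ± 0.40 and 1.00 ± 0.21 in control J2.

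**Figure D3:**
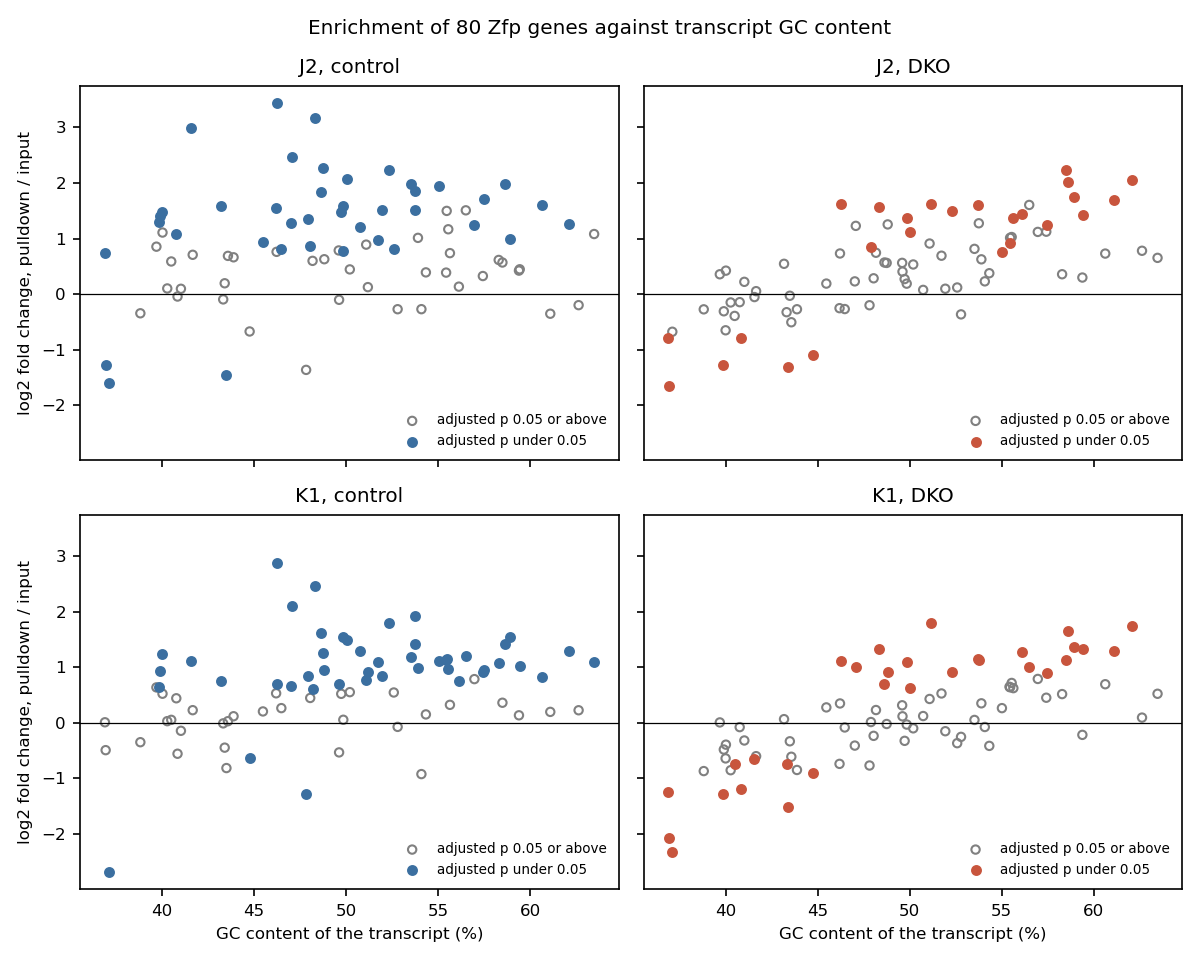
Log2 fold change of pulldown against input (y axis) by GC content of the transcript in percent (x axis) for the 80 Zfp genes, in a panel for each antibody and genotype, with filled points at an adjusted p under 0.05. In the DKO panels the points climb from left to right (Spearman 0.71 and 0.72), and every lower call lies below a GC content of 46.3%.

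The number of fingers was nearly unrelated to enrichment (Spearman from -0.18 to 0.08 over the 4 pulldown comparisons), and the number of linkers ranged from -0.01 in control J2 to -0.33 in DKO K1. The 12 members with the KRAB pattern had medians of 0.79 in control J2, 0.16 in control K1, -0.30 in DKO J2 and -0.62 in DKO K1. The 68 without it had 0.88, 0.76, 0.64 and 0.27. The pattern was a strict motif searched in the longest coding transcript of each gene, so members without it may still encode a KRAB domain. Whether the domain or the GC content of these transcripts goes with the lower values was not tested.

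The difference of enrichment between the genotypes was tested directly as an interaction. For J2, 1 member passed upward and 6 downward, where 0.772% of all genes passed upward and 1.94% downward. The median over the members was -0.43, against -0.14 over protein-coding genes with the same input minimum and 0.00 over all genes. For K1, 0 passed upward and 5 downward by edgeR (31 in both directions at an unadjusted p under 0.05, and 2 upward and 6 downward with DESeq2), where 1.37% passed upward and 4.1% downward. The medians were -0.56, -0.33 and -0.20.

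These calls depend on the model. With each animal as a block, 0 passed for J2 (29 at an unadjusted p under 0.05) and 2 upward and 15 downward for K1, while DESeq2 without the block gave 24 for J2. With RLE scaling the J2 split was 0 upward and 6 downward, and without TMM scaling it was 0 and 7. Without control animal 1 or 2 the counts were 0 for J2 (5 and 6 at an unadjusted p under 0.05) and 0 for K1 (6 and 11), without DKO animal 1 they were 56 and 31, and without DKO animal 2 they were 40 and 14. With the GC and length offsets and no block, no member passed for J2 or for K1 (25 and 18 at an unadjusted p under 0.05).

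Zfp644 (ENSMUSG00000049606.16, chr5:106616739-106697287), a partner of the histone methyltransferases G9a and GLP, had the largest J2 difference. It stood at 32.4 and 31.9 CPM in control input, 237 and 274 in control J2 and 77.1 and 70.1 in control K1. The DKO values stood at 22.2 and 23.3 in input, 24.5 and 18.5 in J2 and 17.1 and 13.1 in K1. Control pulldowns are far above input, while in DKO 3 of the 4 pulldown values lie below both inputs and that of DKO 1 in J2 just above them. The difference of enrichment was -3.05 ± 0.36 for J2 (adjusted p 0.0291) and -1.77 ± 0.28 for K1 (adjusted p 0.0157).

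Zfp266 (ENSMUSG00000060510.13, chr9:20495068-20521417) and Zfp871 (ENSMUSG00000024298.14, chr17:32765496-32788287), KRAB zinc finger genes whose units are shown above, passed with both antibodies as well. Zfp266 had 34.8 CPM in each control input, 84.6 and 87.1 in control J2 and 63.4 and 51.6 in control K1. In DKO it had 22.7 and 27.9 in input, 9.69 and 10.8 in J2 and 13.5 and 7.70 in K1. The order of input and pulldown is thus opposite in the 2 genotypes, without overlap. It was above input in control J2 by 1.31 ± 0.21 and below it in DKO J2 by -1.28 ± 0.23, a difference of -2.59 ± 0.32 (adjusted p 0.0291), and the K1 difference was -1.93 ± 0.36 (adjusted p 0.0207).

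Zfp871 had 54.0 and 57.2 CPM in control input, 163 and 144 in control J2 and 157 and 120 in control K1. In DKO it had 41.9 and 33.5 in input, 30.3 and 16.7 in J2 and 30.4 and 19.9 in K1. Here, too, control pulldowns are above input and DKO pulldowns below it. The differences were -2.12 ± 0.44 for J2 (adjusted p 0.0484) and -1.87 ± 0.35 for K1 (adjusted p 0.0203).

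The other J2 calls were Zfp866 (-1.80 ± 0.34), Zfp148 (ZBP-89, -1.72 ± 0.32), Zfp654 (-1.53 ± 0.32), which ranked sixth among the falls and was named after its values were seen, and Zfp622 upward (1.49 ± 0.31, adjusted p 0.0499). For K1 they were Zfp652 (-1.77 ± 0.33) and Zfp236 (-1.14 ± 0.27). In every one of these the same-animal differences from input of both DKO animals lay on one side of both control animals. For all but Zfp654 the rule for naming genes required this, so it is not separate support. The GC content of the transcripts of the 6 that passed downward for J2 ran from 36.9% (Zfp654) to 46.2% (Zfp866), and that of Zfp622 was 51.2%. Of the genes that passed downward for K1 alone, Zfp652 had 46.3% and Zfp236 had 53.5%, so a GC-rich member was among them.

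The input libraries themselves differed between the genotypes for 21 of the 80 genes. Of these, 11 were higher and 10 lower in DKO, where 18.8% of all 15088 genes tested were higher and 17.1% lower, so the members' shares are below the background. The median log2 fold change was 0.00. Fewer cells of a type and less RNA per cell cannot be told apart in bulk RNA, and the leukocyte marker sum was lower in the same DKO inputs. Without TMM scaling 5 were higher and 13 lower, and the median of all genes moved by -0.13. The count was 9 without control animal 1 or 2, 22 without DKO animal 1, 33 without DKO animal 2, and 3 in a single fit of all 12 libraries.

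Higher in DKO input were Zfp568, Zfp36, Zfp513, Zfp672, Zfp384, Zfp143, Zfp516, Zfp35, Zfp512, Zfp407 and Zfp598. The tristetraprolin gene Zfp36 rose from 217 and 235 to 426 and 306 CPM, a log2 fold change of 0.74 ± 0.18 (adjusted p 0.0154). Zfp568 rose by 0.79 ± 0.18 (adjusted p 0.0134), from 8.67 and 10.8 to 17.2 and 15.6 CPM. Zfp513 rose from 17.0 and 18.7 to 31.4 and 26.0 CPM (0.72 ± 0.15), and Zfp384 rose from 63.5 and 57.8 to 99.7 and 82.1 CPM (0.62 ± 0.14). None of these ranges overlap between the genotypes. The rule that named the largest changes kept only genes without such overlap, so this is not separate support.

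Lower in DKO input were Zfp629, Zfp704, Zfp652, Zfp706, Zfp462, Zfp608, Zfp740, Zfp768, Zfp871 and Zfp644. Zfp629 fell by 1.14 ± 0.18 (adjusted p 0.00264), from 18.6 and 22.3 to 8.42 and 9.63 CPM. Zfp652 fell by 1.02 ± 0.11 (adjusted p 0.000711) and Zfp706 fell by 1.02 ± 0.13 (adjusted p 0.00134), from the levels given above. Zfp462 fell by 0.94 ± 0.20, from 24.3 and 26.0 to 10.3 and 15.2 CPM. In each of these the 2 DKO animals lay below the 2 controls, as the rule for naming the largest falls required.

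**Figure D4:**
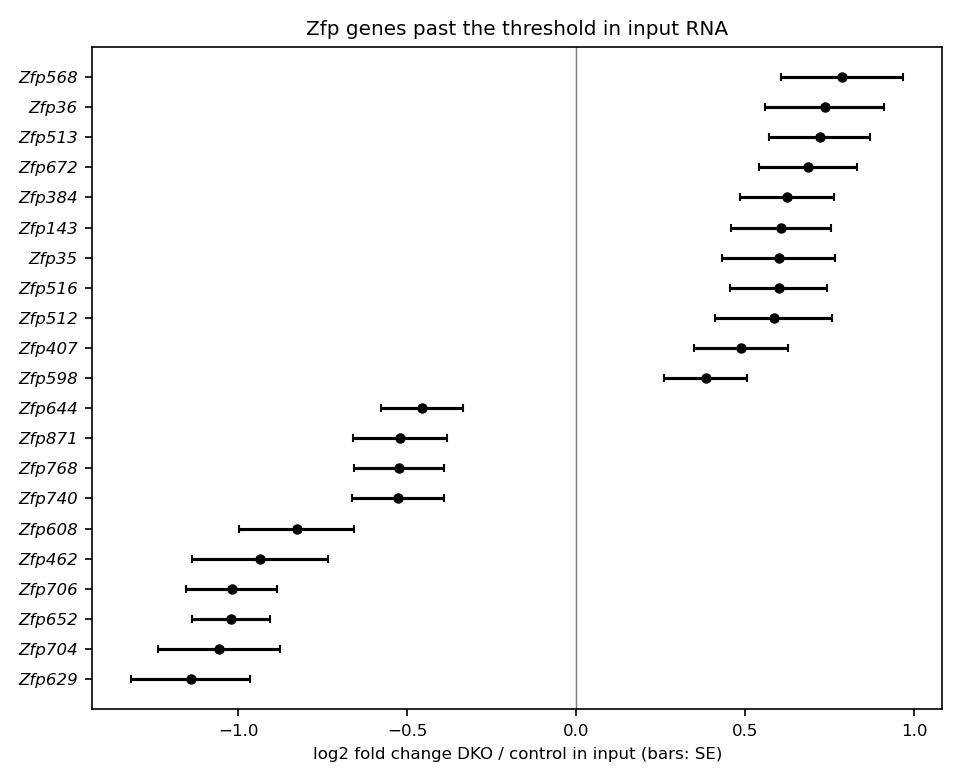
Log2 fold change of DKO against control in input RNA (x axis) for the 21 Zfp genes past an adjusted p of 0.05 (y axis, 1 gene a row), with bars for the SE derived from edgeR's F statistic. The 11 genes above 0 reach 0.79 (Zfp568), and the 10 below 0 reach -1.14 (Zfp629).

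Within the J2 libraries, 2 members were higher and 8 lower in DKO, where 6.02% of all 13181 genes tested were higher and 6.16% lower. The median of the members was -0.34, against -0.13 over protein-coding genes with the same input minimum. Zfp513 rose from 12.9 and 15.1 to 56.9 and 125 CPM (2.79 ± 0.52, adjusted p 0.037) and Zfp622 by 1.63 ± 0.31. Lower were Zfp644 (-3.52 ± 0.39), Zfp266 (-3.00 ± 0.34), Zfp652 (-2.86 ± 0.56), Zfp871 (-2.67 ± 0.40), Zfp704 (-2.64 ± 0.42), Zfp706 (-2.51 ± 0.44), Zfp148 (-2.05 ± 0.34) and Zfp866 (-1.94 ± 0.36). Without TMM scaling 0 were higher and 11 lower. No member passed without control animal 1 or 2 (9 each at an unadjusted p under 0.05), and 61 and 50 passed without DKO animal 1 or 2.

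Within the K1 libraries, 5 members were higher and 17 lower in DKO, where 13.2% of all 12888 genes tested were higher and 13.9% lower. The median was -0.27, against -0.16 over protein-coding genes with the same input minimum. Higher were Zfp513, from 21.5 and 21.8 to 64.6 and 84.2 CPM (1.98 ± 0.29, adjusted p 0.00508), Zfp36 (1.77 ± 0.44), Zfp276 (1.25 ± 0.32), Zfp622 (1.18 ± 0.26) and Zfp219 (0.90 ± 0.27). The 5 lowest were Zfp652 (-2.64 ± 0.32), Zfp871 (-2.26 ± 0.30), Zfp266 (-2.23 ± 0.33), Zfp644 (-2.09 ± 0.27) and Zfp704 (-2.00 ± 0.33). Without TMM scaling 3 were higher and 27 lower, and the count was 7 and 8 without control animal 1 or 2 and 39 without DKO animal 2.

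Genes that work with KRAB zinc finger proteins were counted from a list of 25 co-repressor, heterochromatin and DNA methylation genes. In input 1 was higher in DKO and 10 were lower, where 18.8% of all genes were higher and 17.1% lower, with a median of -0.23, in the same libraries in which the leukocyte marker sum was lower. Trim28, the KRAB co-repressor, stood at 77.6 and 81.5 CPM in the controls and 34.3 and 42.6 in DKO (-1.01 ± 0.14). Uhrf1, which brings Dnmt1 to replicated DNA, stood at 35.8 and 33.2 against 8.92 and 12.9 CPM (-1.61 ± 0.19). Setdb1 had 28.4 and 28.5 CPM in control input and did not pass (-0.33). The other genes that fell were Cbx1, Cbx3, Cbx5, Chd3, Hdac2, Dnmt1, Dnmt3a and Suv39h1, and Morc3 rose.

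In the control pulldowns 6 of the 25 were higher and 2 lower with J2 (median 0.28, background 15.2% and 14.6%), and 13 higher and 1 lower with K1 (median 0.69, background 19.7% and 20.1%). Cbx5, which encodes HP1 alpha, had the highest value. It stood at 80.5 and 75.8 CPM in control input, 868 and 786 in control J2 and 526 and 395 in control K1, but at 50.2 and 14.2 in DKO J2 and 28.0 and 24.9 in DKO K1. Control pulldowns are far above input. The DKO inputs were 21.3 and 32.2 CPM, so DKO 1 is above its own input with both antibodies and DKO 2 below. Mphosph8, a subunit of the HUSH complex, moved the other way, with 4.87 and 4.62 CPM in K1 of the controls and 16.2 and 24.9 in K1 of the DKO animals. The K1 difference of enrichment passed for both, at -2.58 ± 0.39 for Cbx5 and 1.85 ± 0.45 for Mphosph8.

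Other zinc finger families with the same input minimum were counted in control, where 15.2% of all genes tested were higher with J2 and 19.7% with K1, and 20.9% and 29.4% of the protein-coding genes with that minimum. Of 24 Zbtb genes, whose proteins join fingers to a BTB domain, 13 were higher and 0 lower in control J2 (median 1.12), and 17 higher and 0 lower in control K1 (median 1.03). Of 8 Klf genes 4 were higher and 0 lower with each antibody (medians 0.76 and 0.70). Of 3 Zkscan genes 2 were higher in control J2 and 1 in control K1, and of 3 Zscan genes 1 in each, with a K1 median of 0.03.

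**Figure D5:**
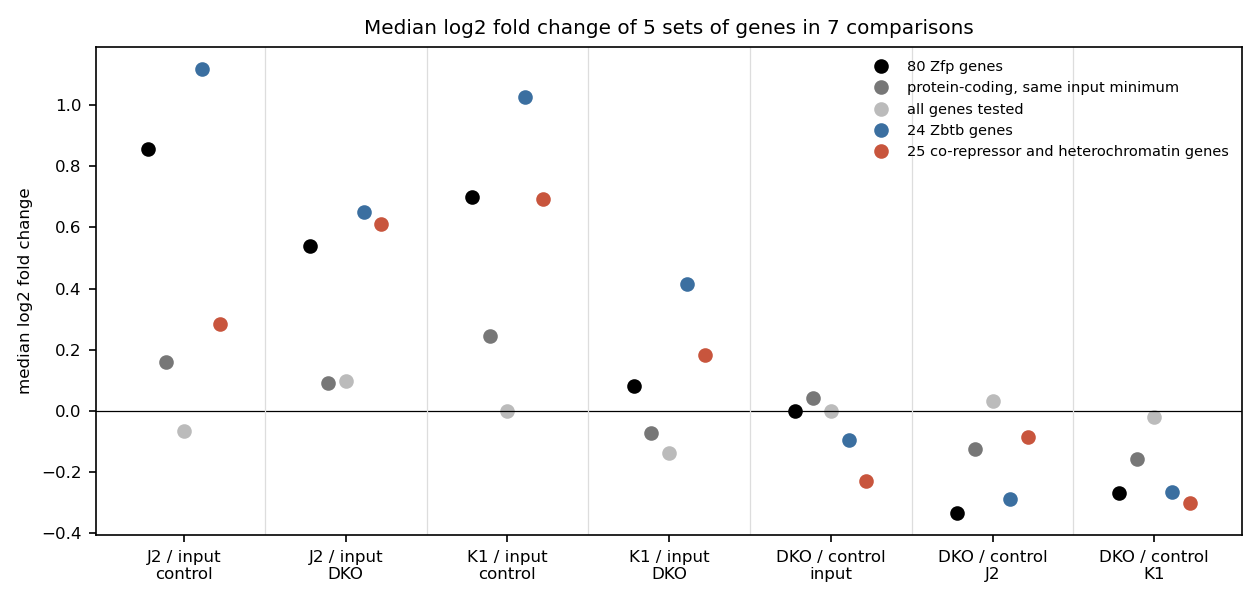
Median log2 fold change (y axis) of 5 sets of genes in 7 comparisons (x axis): the 80 Zfp genes, protein-coding genes with the same input minimum, all genes tested, 24 Zbtb genes and 25 co-repressor and heterochromatin genes. The Zfp median lies above those of protein-coding genes in the 4 pulldown comparisons (0.86 against 0.16 in control J2) and at 0.00 for DKO against control in input.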

How the data were processed

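The authors deposited whole-number read counts per gene, in 1 file for each of 12 libraries, made without strand per the labels' file descriptions. Per the labels' protocols, ribosomal RNA was depleted, and random-primed libraries were given molecular identifiers and sequenced as read pairs of 150 bases. The submitters' processing notes name STAR 2.7.10b, HTSeq 2.0.2, UMI-tools 1.1.4, SAMtools 1.17, FastQC, deepTools 3.5.2, DESeq2 1.40.1 and edgeR 3.42.2 and the builds mm10 and GRCm38.p4, without roles or settings. Whether reads with the same molecular identifier were merged before counting is not given in the sources used here, so copies made by amplification may be counted as separate reads.

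Rows that name no gene (reads outside genes, ambiguous or aligned to several places) held 18.7% to 61.2% of the listed reads and entered neither library sizes nor tests. Gene identifiers matched GENCODE M21 (GRCm38) for 48144 of 48526 rows. The test was that of edgeR 4.0.16, run in R 4.3.3 (TMM scaling, filterByExpr with a count minimum of 10, quasi-likelihood test, Benjamini-Hochberg adjustment over all genes, threshold 0.05). Pulldown against input and the difference of enrichment were fitted on the 8 libraries of an antibody and its inputs (4 residual degrees of freedom), and DKO against control on the 4 libraries of a kind (2 residual degrees of freedom). Each fit shares its estimate of the spread over its groups, so an SE does not show the spread within a genotype. The SE of a log2 fold change was derived as its absolute value divided by the square root of edgeR's F statistic. CPM values were scaled by TMM over the 12 libraries. Simulated counts were used only to see whether the code recovers known changes. They had the same spread for all genes and libraries and no animal effect. They covered the difference of enrichment, and DKO against control in input and K1. They do not show how the fits behave at the spread of the DKO pulldowns. No spike-in is described, so a difference in how much RNA each pulldown recovered is lost in the scaling.

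The members and gene lists were chosen with earlier results of these data known. Genes are named by rule: in each contrast the 5 largest rises and the 5 largest falls among called members whose values do not overlap between the sides, the 5 members highest per length in input, the genes nearest the minimum, and members of a list of known roles. Libraries of a genotype with the same replicate number carry the same animal code in the labels, and their deviations from the group means correlated (0.21 to 0.49), so the animal was also fitted as a block. Alternatives were RLE scaling, no TMM, DESeq2 1.42.0, no filter, a fit of all 12 libraries, the block, libraries thinned to the smallest of a fit, offsets for GC content and transcript length (loess, span 0.3), and each animal left out in turn. Fingers and linkers were counted in translated GENCODE transcripts, and near-identical stretches were found with blastn 2.17.0+. Replicate libraries differed beyond counting noise, and most in the DKO pulldowns. The chi-square per degree of freedom was 52.8 in DKO J2, 27.8 in DKO K1 and from 6.98 to 15.5 in the other groups.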

Additional observations from a re-analysis of the deposited data

Results flagged for a closer look

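The enrichment over input differed between control and DKO, by edgeR's interaction test, for 7 members with J2 and 5 with K1. With J2 the log2 difference (DKO minus control) was -3.05 for Zfp644, -2.59 for Zfp266, -2.12 for Zfp871, -1.80 for Zfp866, -1.72 for Zfp148, -1.53 for Zfp654 and 1.49 for Zfp622. With K1 it was -1.93 for Zfp266, -1.87 for Zfp871, -1.77 for Zfp644, -1.77 for Zfp652 and -1.14 for Zfp236. In each of these the same-animal values of the 2 DKO animals lay on one side of those of the 2 control animals. The rule that named these genes, Zfp654 apart, required this, so it adds no support to the calls. Reads aligned to several places were a larger share of the DKO pulldowns, and the depth of the DKO pulldowns was lower. With libraries thinned to the smallest total count and no block, 2 members passed for J2 and 3 for K1. The libraries pair by animal, and with the animal as a replicate block all J2 calls were lost (0 passed) and 17 members passed for K1. With the block and thinning, 0 passed for J2 and 6 for K1.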

How the results depend on the processing

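Of 982 alternative values of the 74 named results, 771 kept their direction and their side of the threshold, 209 kept the direction but no longer passed, and 2 reversed. Both reversals were Zfp654 in DKO K1 against input, which turned to 0.0378 with the GC and length offsets and 0.0319 with the offsets and the replicate block. The counts of members called changed by more than 1.5 times as follows, and the cause was not tested. In control J2 against input the count of 40 became 25 without TMM scaling, 25 with the offsets and 20 with the offsets and the block. In DKO J2 against input the count of 25 became 16, 12 and 9 in the same order, and in DKO K1 against input 30 became 17 with the offsets. The difference of J2 enrichment, with 7 calls, gave 24 with DESeq2, 17 without a filter, 11 in the fit of all 12 libraries, 2 with thinned libraries, 0 with the offsets, and 0 with the replicate block, alone, thinned or with the offsets. The difference of K1 enrichment, with 5 calls, gave 9 without TMM, 8 with DESeq2, 9 without a filter, 0 in the fit of all 12 libraries (24 at an unadjusted p under 0.05), 3 thinned, 0 with the offsets and 17 with the replicate block. DKO against control gave 3 of 21 in input in the fit of all 12 libraries, and in J2, against 10, 16 with DESeq2, 18 without a filter, 35 in the fit of all 12 libraries and 6 with the offsets.

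Leaving out 1 animal at a time moved the counts from 0 to 68 in control J2, 2 to 59 in control K1, 0 to 50 in DKO J2, 17 to 40 in DKO K1, 0 to 56 for the J2 difference, 0 to 31 for the K1 difference, 9 to 33 for DKO against control in input, 0 to 61 in J2 and 7 to 39 in K1. The low ends came without a control animal and the high ends without a DKO animal. For pulldown against input and its difference the replicate block pairs libraries of 1 animal, and it changed no other count by more than 1.5 times. For DKO against control the numbers are only shared (correlations of deviations 0.03, -0.09 and -0.10), and the block gave 23, 12 and 20 calls in input, J2 and K1. Without TMM scaling the median over all genes shifted by -0.38 and -0.23 for control J2 and K1 against input, -0.36 and -0.34 for DKO, -0.13 for DKO against control in input and -0.37 in K1. RLE scaling shifted it by -0.12 in control K1 against input and 0.16 for the K1 difference. Depth limits the DKO pulldowns most, where low members such as Zfp946 had 7 to 15 reads.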
